A study of Mus musculus with 2 samples.

Results

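The LIM homeobox neuron identity factors are transcription factors named for a paired zinc-binding LIM domain and a DNA-binding homeodomain. Members were the non-control probes whose gene name on the array is Isl1, Isl2, Lhx1, Lhx2, Lhx3, Lhx4, Lhx5, Lhx9, Lmx1a or Lmx1b, with a processed signal on both arrays. These are 10 of the 32946 gene names on the array and are read by 19 probes of 60 bases, each printed in 1 spot. They were read in mouse 46C embryonic stem cells, a line with a green fluorescent reporter at the neural gene Sox1, aggregated in low-adhesion dishes in serum-replacement medium. One group is wild type 46C cells, and the other is 46C cells labelled KO-Linc1548, a knockout of a long intergenic non-coding RNA. Both were taken at day 5 of neural differentiation, with 1 array of total RNA each and no replicate. The labels do not say how the deletion was made, whether the knockout is 1 clone, or how many cultures an array stands for. The series title names OCT6 and SOX2 as partners of the RNA in the passage from epiblast stem cells to neural progenitors, so the comparison asks how that passage differs without it.

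In the embryonic nervous system, combinations of LIM homeobox factors set which class a newborn neuron joins. The LIM domains bind the adaptor Ldb1, which joins factors into complexes, and LIM-only proteins compete for the same adaptor. In the spinal cord Isl1 with Lhx3 marks motor neurons, Lhx1 and Lhx5 mark inhibitory interneuron classes, Lhx2 and Lhx9 mark dorsal commissural neurons, and Lmx1a and Lmx1b act in the roof plate and the midbrain floor plate. Several members also work elsewhere, Lhx1 in the early mesendoderm and kidney, Isl1 in the heart, and Lhx3 and Lhx4 in the pituitary.

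A probe is called detected here where the software flagged its signal as well above background, which held for 61.4% of the 56605 probes in wild type cells and 58.5% in knockout cells. Signals below are the deposited processed intensities, with the scanning software's own error for the spot. The knockout array was dimmer: its 75th percentile was 652 against 864. Differences are therefore log2 values of knockout over wild type after each signal was divided by its array's 75th percentile, so a plain ratio of knockout to wild type signals is multiplied by 1.32. Over 298 probes printed in several spots, log2 signals had a pooled SD of 0.065 for wild type and 0.070 for knockout, and an SD of 0.096 follows for a difference of single spots. That SD covers error within an array and not the spread between cultures, so no difference here was tested. In a mixed culture, fewer cells of a type and less RNA per cell cannot be told apart.

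Most LIM homeobox probes were seen in the wild type culture and fewer in the knockout culture. Of the 19 probes, 15 were detected in wild type cells and 11 in knockout cells. Of these, 11 were detected in both, 4 in wild type cells alone (Isl1, Lhx4 with both its probes, and Lmx1b), and the other 4 were detected in neither (all 3 of Lhx9 and 1 of Lmx1b). Over the whole array, 5.69% of probes were seen on the wild type array only. On the knockout array only there were 0 of the 19, against 2.82% of all probes. No member probe was saturated, and none shares 20 bases in a row with a probe of another name.

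A gene's difference is the median of its probes measured on both arrays, which 8 of the 10 genes had. Of these 8, 7 were at least 2-fold lower on the knockout array, 0 were at least 2-fold higher, and Lhx1 lay within 2-fold. Over the 18671 genes measured in the same way, 8.81% were lower by 2-fold or more and 11.5% were higher by as much. The median log2 difference of the 8 genes was −1.78, beside 0.10 over all genes. With another background correction, normexp, which here added an offset of 50 to each signal, 4 of the 8 were at least 2-fold lower. With spike-in controls as the centre, 15.6% of all genes were lower and 7.53% higher, and the median of all genes moved to −0.27.

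**Figure D1:**
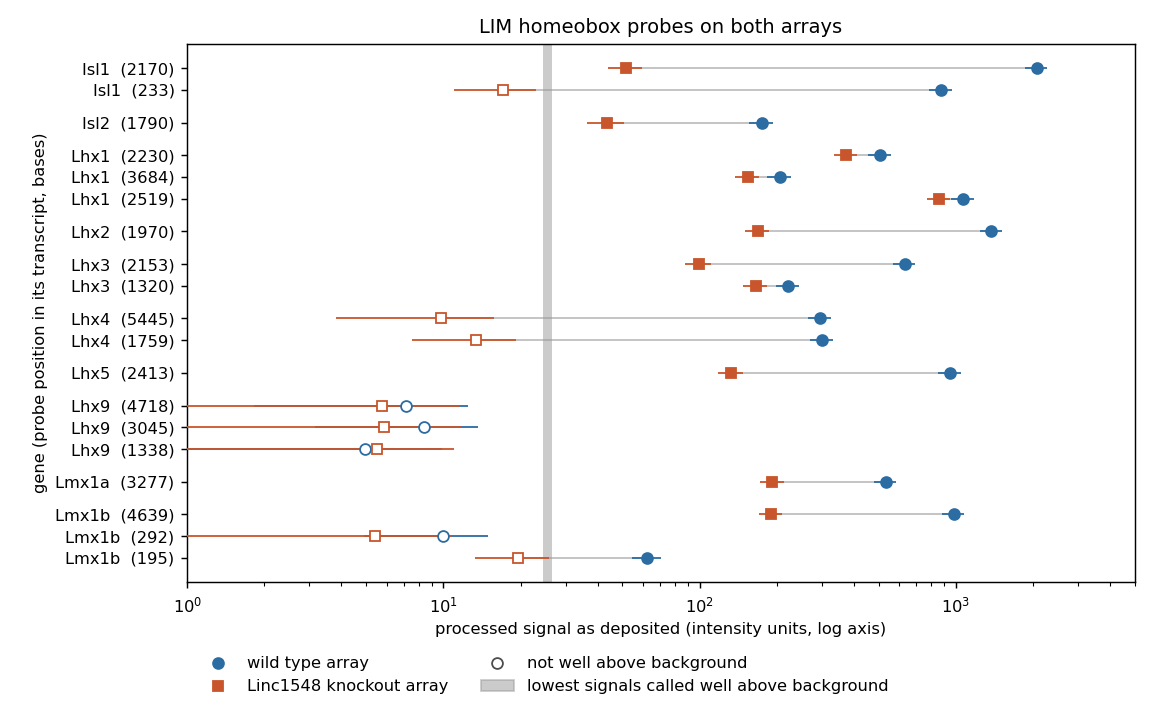
Deposited processed signal of each LIM homeobox probe (log axis, intensity units) on the wild type array (circles) and the knockout array (squares), 1 spot each, labelled by gene and by the position of the probe in its transcript; bars are the software's error, drawn to the axis edge where they run below it, and open symbols are not well above background. The widest gap is that of the Isl1 probe at position 233 (876 against 17.0, the latter an open symbol). The Lhx1 pairs lie close together, and all Lhx9 symbols are open.

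Among the motor neuron members, all 4 genes were lower in the knockout culture, and Isl1 had the largest difference of the family. Isl1 is switched on as motor neurons leave the cell cycle and is also a factor of heart progenitors and sensory neurons. Its probe at position 2170 of the transcript (chr13:117088774-117088833, minus strand, mm9) read 2068 ± 207 in wild type cells and 51.7 ± 7.82 in knockout cells. The difference was −4.92 on the log2 scale, 30.2-fold lower, the 6th lowest of the 18671 genes. With normexp it was −3.81, still the lowest of the family. A further Isl1 probe lies near the other end of the transcript, at position 233, and is of interest because it covers the start of the protein. Here and below, which part of a protein a probe covers is background knowledge of the protein and was not read from an annotation. Its bases from the first ATG, in capitals, at chr13:117099604.0-117099630.0 (minus strand, mm9), are:
Isl1: ATGggagacatgggcgatccaccaaaa

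That probe read 876 ± 87.7 in wild type cells and 17.0 ± 5.98 in knockout cells, where it was not well above background, so it was at least 25.0-fold lower. Such a bound sets the brighter scaled signal against the higher of the lowest scaled signal well above background on the dim array and the probe's own, and it holds for the deposited background correction. With normexp this Isl1 probe differed by −3.08, less than the bound. Both ends of the Isl1 transcript were thus bright in the wild type culture and near or below the detection limit in the knockout culture. Isl2, a close relative that acts with Isl1 in motor neurons, has 1 probe (chr9:55393925-55393984, plus strand, mm9). It read 175 ± 18.2 in wild type cells and 43.5 ± 7.07 in knockout cells, a difference of −1.60 or 3.03-fold lower. With normexp the Isl2 difference was −0.72, within 2-fold.

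Lhx3, which pairs with Isl1 in motor neurons and without it marks V2a interneurons, was read differently by its 2 probes. The probe at position 2153 (chr2:26055746-26055805, minus strand, mm9) read 632 ± 63.5 in wild type cells and 99.3 ± 11.7 in knockout cells, a difference of −2.27 or 4.81-fold lower. The probe at position 1320, 833 bases away (chr2:26056579-26056638), read 221 ± 22.7 and 165 ± 17.5, a difference of −0.013. The gene's median of −1.14 (2.20-fold lower) lies midway between these probes, and with normexp it was −0.82, within 2-fold. Of 3474 transcripts with measured probes at least 500 bases apart, 25 (0.720%) had probes whose differences were at least as far apart as the 2.25 of Lhx3. Which of the Lhx3 probes reports the transcript was not tested.

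Lhx4, a paralog that overlaps with Lhx3 in motor neuron and pituitary development, was well above background in the wild type culture alone; by the software's more lenient positive-and-significant flag both its probes were present on both arrays. Its probe at position 5445 (chr1:157545170-157545229, minus strand, mm9) read 295 ± 30.0 in wild type cells and 9.79 ± 5.99 in knockout cells. Its probe at position 1759 (chr1:157548856-157548915) read 301 ± 30.6 and 13.4 ± 5.83. The differences were at least 8.43-fold and at least 8.59-fold. With normexp the differences of these Lhx4 probes were −1.71 and −1.76, smaller than those bounds but past 2-fold.

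Of the interneuron members, Lhx1 read nearly the same in both cultures and Lhx5 was 5.41-fold lower in the knockout culture. Lhx1 and Lhx5 are paralogs that act together in dorsal inhibitory interneurons and in Purkinje cells, and Lhx1 alone is needed in the anterior mesendoderm that forms the head. Lhx1 has 3 probes on the minus strand of chromosome 11 (mm9). The probe at position 2230 (chr11:84331533-84331592) read 506 ± 50.9 in wild type cells and 373 ± 37.8 in knockout cells, a difference of −0.034. The probe at position 3684 (chr11:84331888-84331947) read 205 ± 21.2 and 155 ± 16.6, a difference of −0.0037. The third Lhx1 probe is shown because it covers the end of the protein, so that coding sequence as well as the transcript's tail was read (chr11:84333052-84333111):
Lhx1: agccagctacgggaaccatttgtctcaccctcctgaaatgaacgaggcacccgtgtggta

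It read 1068 ± 107 in wild type cells and 859 ± 86.1 in knockout cells, a difference of 0.091. The 3 Lhx1 probes thus lay within 0.13 of each other and gave a gene difference of −0.0037. Over 10 processing settings the Lhx1 difference ran from −0.38, with spike-in centring, to 0.091, and it was within 2-fold in all 10. Lhx5 has 1 probe (chr5:120891144-120891203, plus strand, mm9), which read 950 ± 95.2 in wild type cells and 133 ± 14.4 in knockout cells. The difference was −2.44, and it ran from −2.81 to −1.97 over 9 settings. The stricter filter on dim probes left no value for Lhx5 or for any measured member other than Lhx1.

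Lhx2 was lower in the knockout culture, and its paralog Lhx9 was not well above background in either. Lhx2 is required for the eye field, the cortical primordium and dorsal commissural interneurons. Its probe (chr2:38224933-38224992, plus strand, mm9) read 1376 ± 138 in wild type cells and 169 ± 17.8 in knockout cells, a difference of −2.62 or 6.16-fold lower. Over 9 settings the Lhx2 difference ran from −3.00 to −2.23. The 3 Lhx9 probes, between positions 140721909 and 140729339 of chromosome 1 (minus strand, mm9), read 4.94 to 8.40 on the wild type array and 5.50 to 5.85 on the knockout array. Lhx9 acts beside Lhx2 in commissural neurons and in the gonad and pineal gland. One of its probes covers part of the homeodomain, and is shown because a coding probe was at background together with the others (chr1:140729280-140729339):
Lhx9: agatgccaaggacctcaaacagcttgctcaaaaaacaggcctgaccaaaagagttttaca

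No fold is given for Lhx9, since neither array measured it. By the positive-and-significant flag, 2 of the 3 Lhx9 probes were present in wild type cells and 0 in knockout cells.

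Lmx1a and Lmx1b, which specify roof plate and midbrain dopamine neurons (Lmx1b also serotonin neurons), were both lower in the knockout culture. Lmx1a has 1 probe (chr1:169778804-169778863, plus strand, mm9), which read 533 ± 53.6 in wild type cells and 192 ± 20.2 in knockout cells. The difference of −1.07 (2.09-fold lower) lies just past the 2-fold limit, and with normexp it was −0.88, within it. The Lmx1b probe at position 4639 (chr2:33416576-33416635, minus strand, mm9) read 980 ± 98.1 in wild type cells and 190 ± 19.9 in knockout cells, a difference of −1.96 or 3.89-fold lower. The other Lmx1b probes cover LIM domain codons near the start of the transcript, at positions 195 (chr2:33495011-33495070) and 292 (chr2:33424708-33424767), and are shown because they were dim where the probe at the transcript's far end was bright:
Lmx1b, position 195: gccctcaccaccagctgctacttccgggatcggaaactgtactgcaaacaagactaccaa
Lmx1b, position 292: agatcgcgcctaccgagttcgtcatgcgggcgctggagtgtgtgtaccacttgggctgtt

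The Lmx1b probe at position 195 read 62.5 ± 8.11 in wild type cells and 19.6 ± 6.34 in knockout cells, where it was not well above background, so it was at least 1.78-fold lower; with normexp it differed by −0.18. The probe at position 292 read 9.92 and 5.41 and was measured on neither array. The call for Lmx1b as a gene therefore rests on 1 probe, with a bound from another that normexp does not keep.

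**Figure D2:**
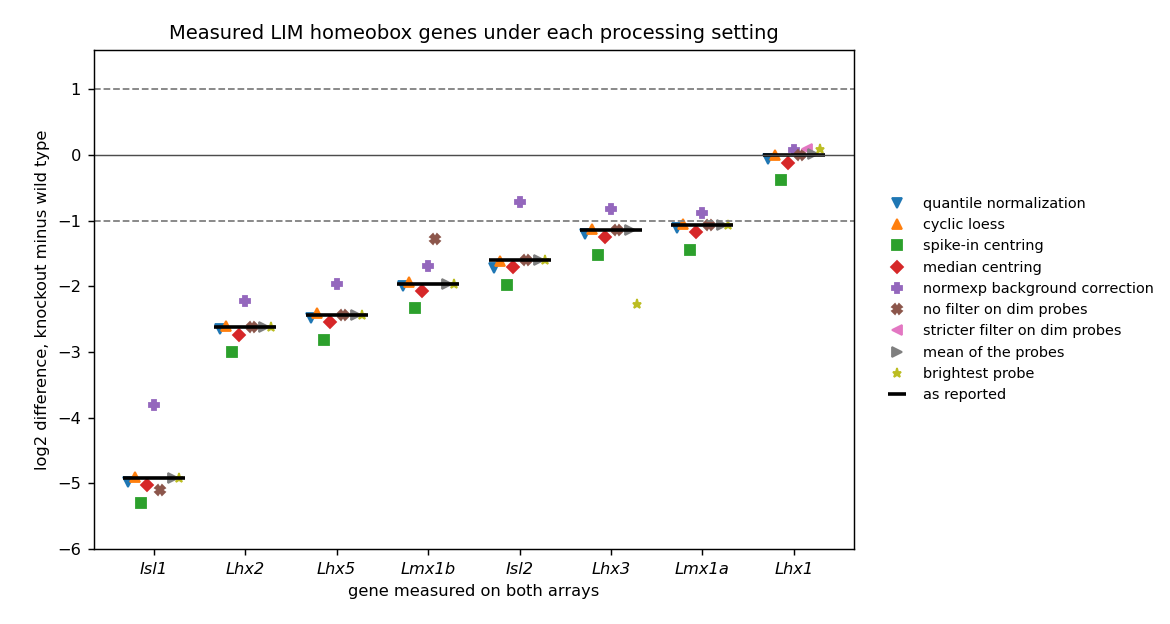
Log2 difference (knockout minus wild type) of the 8 LIM homeobox genes measured on both arrays as reported (black lines) and under 9 other processing settings (symbols); dashed lines mark 2-fold. Isl1 lies lowest in every setting that gives it a value, Lhx1 stays within 2-fold in all of them, and normexp puts Isl2, Lhx3 and Lmx1a inside the limit.

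The LIM homeobox genes outside the member list, Lhx6 and Lhx8, lay within 2-fold by their measured probes. Lhx6, a factor of cortical interneurons from the ventral forebrain, read 1836 in wild type cells and 1451 in knockout cells by its measured probe, a difference of 0.066. Lhx8, a factor of forebrain cholinergic neurons, read 104 and 110, a difference of 0.50. A further Lhx8 probe was seen on the wild type array only, at least 1.39-fold higher there. The Lhx8 probes therefore do not give the same direction.

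Genes for proteins that work with LIM domains were lower or within 2-fold on the knockout array, and those within 2-fold had both signs. Of 10 such genes, 9 were measured, 3 were at least 2-fold lower, 0 were at least 2-fold higher and 1 was seen on the wild type array only; the median difference of the 9 was −0.15 (−0.87 to −0.070 over the settings). The common adaptor Ldb1 was near even, with differences of 0.048 and 0.15 from its 2 probes, and its paralog Ldb2 read 346 in wild type cells and 235 in knockout cells, a difference of −0.15. Lmo1, a LIM-only protein that competes for Ldb1, read 2763 and 119, a difference of −4.13 or 17.5-fold lower. Lmo3 read 260 and 20.3, the latter not well above background, at least 7.41-fold lower.

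Lmo2, the LIM-only factor of blood cells, showed a difference of 0.083. Lmo4, the LIM-only protein of cortex and neural tube, had a median of −0.87 over 3 probes that ran from −1.01 to −0.45, within 2-fold. The single-stranded DNA binding proteins shield Ldb1 from degradation. Among these, Ssbp2 was −1.81 over 3 measured probes (−2.01 to −1.70) and Ssbp3 was −1.03 over 3 probes (−1.10 to −0.69), whereas Ssbp4 was 0.47. Rlim, the ubiquitin ligase that targets Ldb1 and LIM factors, was higher by 0.88, 0.90 and 1.15 on its 3 probes, with a median within 2-fold.

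Genes that mark the cells in which the members work were read from lists of known markers. The motor neuron list moved with Isl1, Isl2, Lhx3 and Lhx4: 8 of its 13 genes were measured, all 8 passed the 2-fold limit downwards, their median was −3.64, and 5 more were seen on the wild type array only. The highest was Phox2a at −2.94 (6863 against 677), a homeodomain factor of visceral and cranial motor neurons, not of somatic spinal ones. Slc18a3, the vesicular acetylcholine transporter, read 1824 and 91.3. The largest bound was that of Neurog2, a proneural factor, at least 10.8-fold lower, while Mnx1, a defining factor of somatic motor neurons, was at least 1.75-fold lower. Slc18a3 and Mnx1 were picked with their values in view.

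The interneuron and floor plate lists held lower, even and higher genes. In both, more genes were at least 2-fold lower than higher, whereas over all genes 8.81% were lower and 11.5% higher. Of 24 spinal interneuron genes, 12 were measured, of which 6 were at least 2-fold lower and 1 higher; 3 were seen on the wild type array only and 8 on neither. Their median of −0.97 ran from −1.35 to 0.30 over the settings. The only positive value came from the stricter filter on dim probes, and it equals the difference of Foxn4 (0.30). All other settings gave a negative median. Gata2, a V2b interneuron factor, was lowest at −4.40, Foxd3, which also acts in pluripotent cells and neural crest, was highest at 3.12, and Nkx2-2, the V3 progenitor factor, was at least 27.2-fold lower. Of 15 midbrain floor plate and dopamine neuron genes, 13 were measured, 7 passed 2-fold downwards and 1 upwards, and the median was −1.45 (−1.88 to −0.50 over the settings). Corin, a floor plate protease, was lowest at −3.77 and Otx2, a forebrain, midbrain and epiblast factor, was highest at 2.01.

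Roof plate genes, the other setting of Lmx1a and Lmx1b, gave 0 at least 2-fold lower and 2 higher among 7 measured of 10, with a median of 0.43 (0.048 to 1.15 over the settings), from Bmp6 at −0.68 to Ttr at 1.29. Msx3, a dorsal neural tube factor, was seen on the wild type array only, at least 2.46-fold higher there. The serotonin neuron list, which shares Gata2, Gata3 and Nkx2-2 with the interneuron list, had 3 of 7 genes measured, all 3 past the limit downwards, with a median of −4.00 (−4.37 to −2.04 over 9 settings) and Gata3 its highest at −2.04. The eye field and forebrain list, a setting of Lhx2, had 6 of 10 measured, 3 of them past the limit downwards and 0 upwards, and its median was −0.78 (−1.47 to −0.32). In that list Pax6, an eye and neural progenitor factor, was lowest at −3.58, Six6, a retinal factor, was highest at 0.59, and Vax1, a ventral forebrain factor, was at least 4.51-fold lower. The node and anterior mesendoderm list, a setting of Lhx1, had all 13 genes measured, with a median of 0.092 (−0.29 to 1.33). In it 1 gene was at least 2-fold lower (Foxa2, −1.88) and 5 were higher, up to Eomes at 3.22. Foxa2 and Otx2 are also in the floor plate list.

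**Figure D3:**
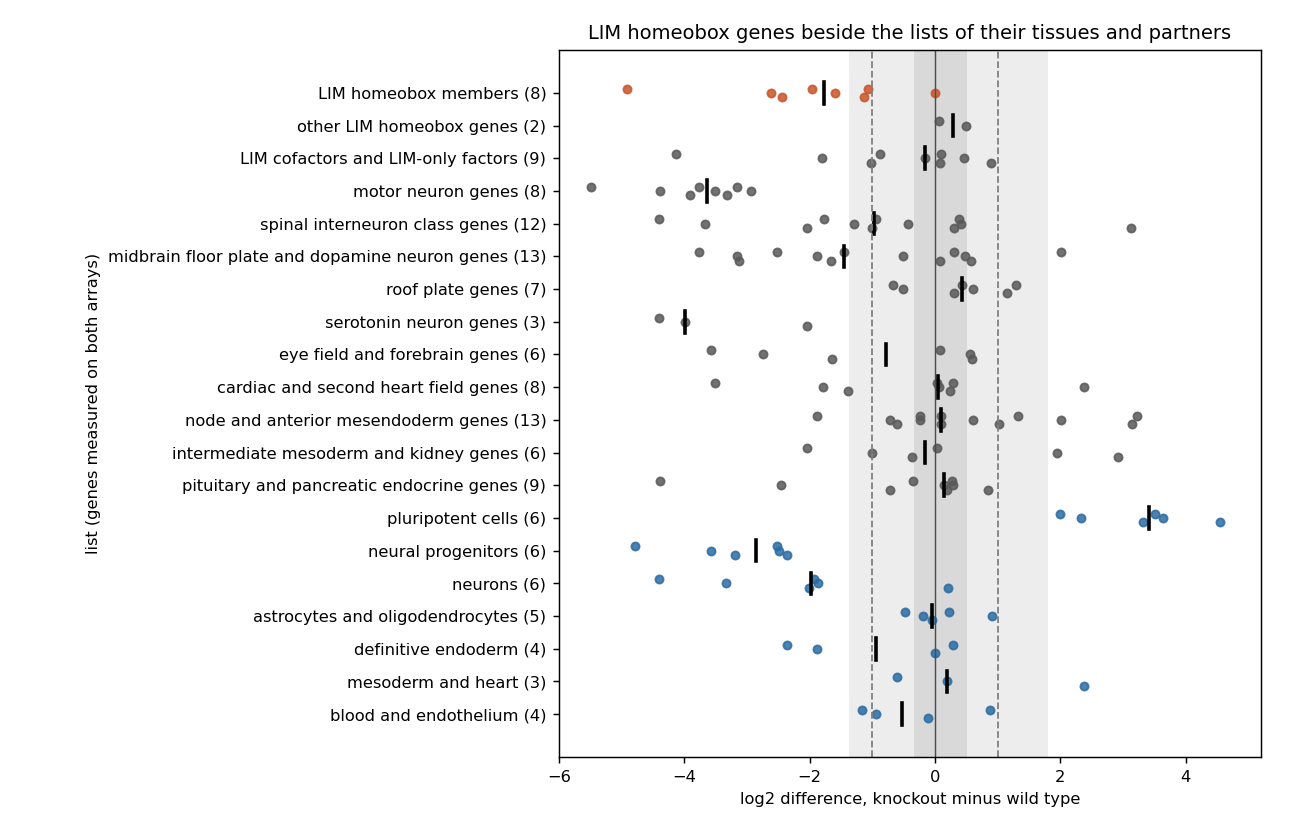
Log2 difference (knockout minus wild type) of each measured gene (points) by list, with list medians (black bars) and the number of measured genes in brackets; orange marks the LIM homeobox genes, grey the context lists and blue the cell type markers, dashed lines mark 2-fold, and the shaded bands hold the central part of all measured genes (−0.34 to 0.51 in the dark band, quartile to quartile, and −1.38 to 1.80 in the light band, 5th to 95th percentile). The motor neuron, serotonin and neural progenitor medians lie lowest and the pluripotent median highest.

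Neural progenitor and most neuron markers were lower together with the members, and pluripotent cell markers were higher. All 6 neural progenitor markers were at least 2-fold lower on the knockout array (−4.78 to −2.36, median −2.86), and their summed level, in multiples of the array's 75th percentile, was 126 in wild type cells and 12.9 in knockout cells. Of 6 neuron markers, 5 were at least 2-fold lower (median −1.98) and Stmn2, a neuronal microtubule protein, was within 2-fold at 0.21; their summed level was 80.0 and 69.8, of which Stmn2 alone made 42.2 and 61.7 and the other 5 made 37.8 and 8.06. All 6 pluripotent cell markers were at least 2-fold higher (1.99 to 4.54, median 3.41), with summed levels of 97.4 and 548. Of these sums Dppa5a alone made 83.7 and 421, and the other 5 pluripotent markers made 13.6 and 127. Each of these markers had at least 1 probe detected on both arrays, so transcripts of pluripotent cells, neural progenitors and neurons were all present in both cultures. Not every probe was, as with Dcx (1 of 4 probes measured) and Pax6 (2 of 6). The part of these markers in the differences of the LIM homeobox genes was not tested.

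Among other lineages, 0 of 5 astrocyte and oligodendrocyte markers passed 2-fold in either direction. Of 4 definitive endoderm markers, Foxa2 and Cxcr4 (−2.37) were lower, and Sox17 and Gata6 were within 2-fold. Foxa2 is the same gene as in the floor plate and node lists, so it is not particular to endoderm. Of 5 mesoderm and heart markers, Myl7 was higher (2.37), Nkx2-5 was seen on the wild type array only and Mesp1 on neither. Of 4 blood and endothelium markers, Hba-x was lower (−1.17). These other lineages thus held markers that were lower, even and higher on the knockout array.

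Probes of other names near the members mostly lay within 2-fold, as did most genes on the array. Within 100 kb of a member probe on the same chromosome (mm9 positions of the files) lay 43 such probes, of which 29 were measured. Of these, 2 were at least 2-fold lower and 1 was higher, with a median of −0.045. Over all genes the shares were 8.81% and 11.5%, but those count genes, whereas several neighbour probes read the same gene. A further 2 probes were seen on the wild type array only and 12 on neither. No such probe lay near Isl1 or Lmx1a. Beside Isl2, the 3 Etfa probes and 1 Scaper probe were between 0.54 and 0.85 while Isl2 was −1.60. Beside Lhx3, all 6 measured probes were within 2-fold, with a median of 0.038.

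The surroundings of Lmx1b differed. An unnamed non-coding locus on the opposite strand, read by a probe at chr2:33501799-33501858 (plus strand, mm9) that lies 6729 bases from the nearest Lmx1b probe, read 1544 in wild type cells and 158 in knockout cells, a difference of −2.88. A probe of an overlapping locus, 5838 bases away, read 76.3 and 14.5 and was at least 2.18-fold lower. Mvb12b, a gene of membrane sorting 90424 bases away, read 11617 and 3763, a difference of −1.22. All 3 of these signals were thus lower on the knockout array, as was Lmx1b.

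Opposite-strand transcripts were also read beside Lhx5 and Lhx1. Gm27199, 21413 bases from the Lhx5 probe, read 91.9 in wild type cells and 6.20 in knockout cells and was at least 2.62-fold lower, while Slc8b1, a mitochondrial calcium exchanger on the Lhx5 strand, read 71.8 and 114 on 1 probe, a difference of 1.07, and 169 and 120 on the other measured probe, a difference of −0.093. Lhx1os, the antisense neighbour of Lhx1, read 952 and 385 on a probe 16075 bases away, a difference of −0.90, and 140 and 152 on a further probe without a position, a difference of 0.53. The Lhx1os probes thus gave opposite signs, both within 2-fold.

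**Figure D4:**
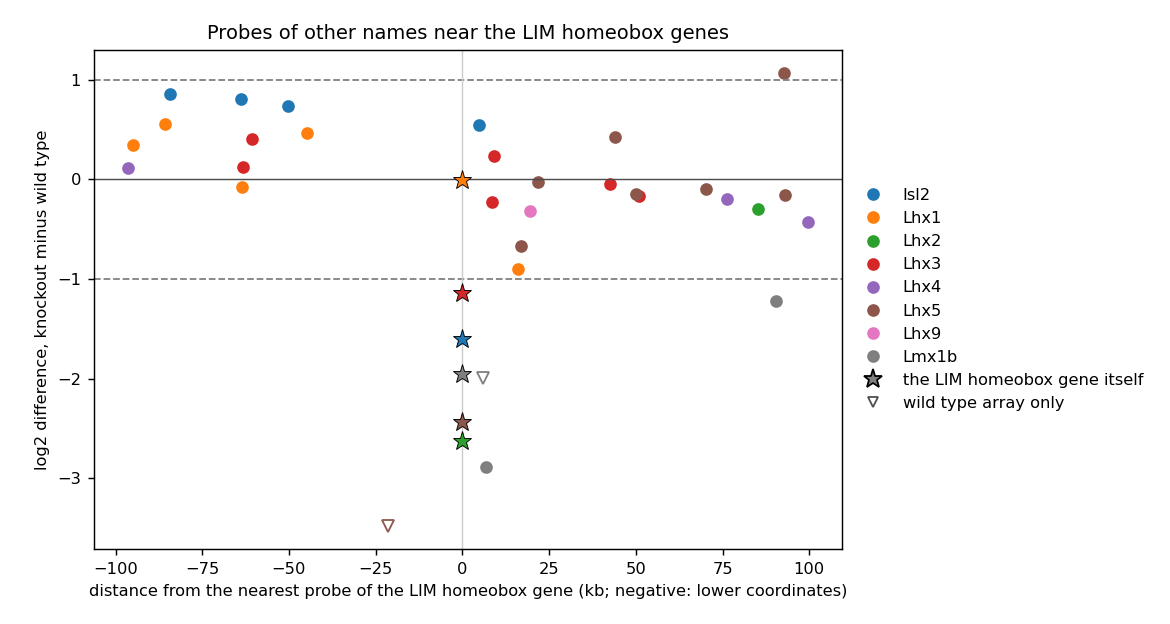
Log2 difference (knockout minus wild type) of measured probes of other names against their distance in kb from the nearest probe of a LIM homeobox gene, coloured by that gene; stars are the measured LIM homeobox genes with such neighbours, open triangles are probes seen on the wild type array only, drawn at their measured ratio, and dashed lines mark 2-fold. Most neighbours lie within 2-fold, and those of Lmx1b lie lowest among the measured probes.

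Promoter sequence was set beside these values because the family's promoters are rich in CpG. RefSeq promoters of build GRCm38.p6, 250 bases before to 50 after a start, matched 11 starts of 9 members, all except Lhx5. Their median CpG count per 300-base window was 24 (6 to 37), beside 7 over all 32851 starts, and 10 of the 11 were at or above that median. Their median GC content was 66.3%, beside 52.7%. The 250 bases before the start are shown, CpG in capitals, for the members with the largest and the smallest difference. Isl1 lies at chr13:116309689-116309938 and Lhx1 at chr11:84525535-84525784, both on the minus strand of GRCm38.p6, a different build from the probe positions.
Isl1: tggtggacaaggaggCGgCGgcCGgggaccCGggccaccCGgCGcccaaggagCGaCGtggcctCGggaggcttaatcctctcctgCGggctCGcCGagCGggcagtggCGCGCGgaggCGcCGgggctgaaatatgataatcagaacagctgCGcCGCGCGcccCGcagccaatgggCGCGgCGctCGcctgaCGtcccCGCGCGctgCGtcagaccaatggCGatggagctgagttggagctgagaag
Lhx1: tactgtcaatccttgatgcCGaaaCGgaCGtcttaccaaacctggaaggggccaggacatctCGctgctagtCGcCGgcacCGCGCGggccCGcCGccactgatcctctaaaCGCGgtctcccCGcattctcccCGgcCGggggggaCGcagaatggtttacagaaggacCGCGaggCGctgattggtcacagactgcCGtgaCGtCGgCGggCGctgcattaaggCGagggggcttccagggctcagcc

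These Isl1 and Lhx1 windows hold 33 and 26 CpG, so the genes whose differences lay furthest apart both start in CpG-rich sequence. The octamer ATGCAAAT, the motif of the POU factor family to which OCT6 belongs, was searched on both strands and found in 0 of the 11 windows, beside 1.74% of all. The SOX motif, ACAAAG or ACAATG on either strand, was found in 2 of the 11 (Isl2 and Lhx9, 18.2%), beside 28.6% of all. A missing motif says only that these letters are not in the window.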

How the data were processed

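Total RNA of 2 samples, labelled with Cy3, was hybridised to 1 one-colour Agilent array each, per the labels' protocols. Per the file headers, Feature Extraction 10.7.1.1 made the deposited spot intensity values: the processed intensity is background-subtracted and trend-corrected, without normalization between arrays. Both arrays share 1 slide and 1 scan, and the array and the culture cannot be told apart from the genotype. Groups come from the genotype label.

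Outlier spots were left out, spots of a probe were averaged as log2 values, and each array was centred on its 75th percentile over non-control probes (Python 3.11.15, numpy 2.4.6, pandas 2.3.3). A probe was measured where, on both arrays, it was not saturated and a share of its spots no lower than 0.5 had the flag for well above background. A gene is the median of its measured probes, and 2-fold is a fixed limit. No test was run, since each group has 1 array; the number of arrays limits the precision. Other gene names came from a RefSeq table of assembly GRCm38.p6 (accession for 32980 probes, symbol for 10219, synonym for 520); 12867 kept the design's name. Alternatives were quantile normalization, cyclic loess and normexp with an offset of 50 (limma 3.58.1 in R 4.3.3), spike-in and median centring, other filters, other probe summaries and other detection calls. Members, lists and marker genes were chosen with earlier results of these data known. Named were all members with every probe, the LIM homeobox genes and cofactors listed, the lowest and highest measured gene and largest bound of each context list, the cell type markers (largely as counts), and neighbours past 2-fold; some genes that this rule takes are not reported here, though counts and medians include them. Simulated arrays served to test these computations.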

Additional observations from a re-analysis of the deposited data

How the results depend on the processing

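The count of 7 LIM homeobox genes at least 2-fold lower was also found with quantile normalization, cyclic loess, spike-in centring, median centring, and the mean or the brightest of the probes. It was 8 of 10 with no filter on dim probes. Normexp gave 4, and the stricter filter, which leaves only Lhx1, gave 0. The members' median of −1.78 was −2.16 with spike-in centring, −1.89 with median centring, −1.28 with normexp, −1.44 with no filter and −2.11 with the brightest probe. It was 0.091 with the stricter filter, where it is the value of 1 gene. The normexp setting added 50 to each signal, which by arithmetic brings ratios nearer to even, most of all where a signal is dim. How much of the smaller differences came from this offset was not tested. The 4 probes seen on the wild type array only depend on the detection call: with the positive-and-significant flag 3 probes were, 0 of them among these 4 (2 of Lhx9 and Lmx1b at position 292), and with a signal over 50 there were 5, including all 4. The count on the knockout array only was 0 under both calls. The 8 spike-in controls differed by −0.027 before any scaling, so centring on them left most of the knockout array's lower brightness in place. The median over all genes was then −0.27. Medians of context lists had a value in 9 settings for the serotonin and cardiac lists, which the stricter filter empties, and in 10 for the others. Over these settings the median kept its sign for the motor neuron, serotonin, eye field, floor plate, cofactor and roof plate lists. It changed sign in at least 1 setting for the other 6, and for the interneuron list only with the stricter filter. With that filter the interneuron median equals the value of Foxn4 (0.30). The roof plate median then equals that of Rspo1 (1.15) and the node median that of Cer1 (1.33). The highest kidney median (1.37) also came from that filter. Leaving out a replicate was not possible with 1 array per group, and slide as a block was not run because both arrays share a slide. No paired analysis was possible because each group has 1 array and the labels give no replicate numbers. Signals near the detection limit (24.5 for wild type and 26.5 for knockout) allow only bounds for Isl1 near its start, Lhx4 and Lmx1b at position 195, and nothing for Lhx9.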

Other observations

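Members act outside the nervous system too, and 3 lists cover those tissues. Of 14 cardiac and second heart field genes, the setting of Isl1 in the heart, 8 were measured, 3 were at least 2-fold lower and 1 was higher, with a median of 0.046 (−0.33 to 0.41 over 9 settings). Tbx20, which is also a motor neuron factor, was lowest at −3.51 (482 against 31.9), Myl7, the atrial myosin light chain, was highest at 2.37 (250.2 against 976), and Nppa, an atrial hormone, gave the largest bound, at least 1.12-fold lower. Of 8 intermediate mesoderm and kidney genes, a setting of Lhx1, 6 were measured, 2 were at least 2-fold lower and 2 higher, with a median of −0.17 (−0.54 to 1.37 over 10 settings). The lowest was Gata3 at −2.04 and the highest Wt1, a factor of the kidney and gonad, at 2.92, and Gdnf, a ureteric bud signal, was at least 2.12-fold lower.

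Of 15 pituitary and pancreatic endocrine genes, a setting of Lhx3, Lhx4 and Isl1, 9 were measured, 2 were at least 2-fold lower and 0 higher, with a median of 0.14 (−0.24 to 0.28). Nkx6-1, shared with motor neuron progenitors, was lowest at −4.38. Pitx1, a pituitary factor, was at least 5.00-fold lower, and Pdx1, a pancreatic factor, was seen on the knockout array only, at least 2.73-fold higher there.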
